A study of Mus musculus with 9 samples.

Results

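The guanylate-binding proteins (GBPs) are large GTPases, and 9 of their mouse genes, Gbp2 to Gbp10, were followed in intestinal epithelial cells (IECs) after activation of natural killer T (NKT) cells. The members were taken by gene symbol as a family, and the choice was made with earlier results of these data known. All 9 were found among the 29288 genes of the count table and passed the filter on low counts. Gbp5 and Gbp10 passed it only through the mice treated 18 h before sampling. RNA was sequenced in bulk from IECs of 9 young adult female wild-type C57BL/6J mice, sorted from proximal small intestinal crypts as live EpCAM+ cells without the blood and endothelial markers Ter119, CD45 and CD31. The control group was 3 mice sampled 18 h after PBS. The other groups received 2 µg of α-galactosylceramide (αGal), a glycolipid antigen of NKT cells, into the peritoneum, and 3 mice each were sampled, 18 h later for the group 18h-αGal and 72 h later for the group 72h-αGal. Since the controls were all taken at 18 h, treatment and time of sampling cannot be told apart in 72h-αGal.

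GBPs are made by many cell types in response to interferons, above all interferon-γ. They bind and hydrolyse GTP, assemble into coats on the vacuoles of intracellular pathogens or on bacteria in the cytosol, and help to open these membranes. In doing so they expose bacterial lipopolysaccharide and DNA to the sensors that start pyroptosis, a lytic form of cell death. In mice their genes lie in 2 clusters on chromosomes 3 and 5.

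Positions are those of RefSeq for the build GRCm38.p6. On the plus strand of chromosome 3 lie Gbp5 (chr3:142496934-142522344), Gbp7 (chr3:142530336-142550151), Gbp3 (chr3:142560016-142573213) and Gbp2 (chr3:142620663-142638008). On the minus strand of chromosome 5 lie Gbp8 (chr5:105012513-105053609), Gbp9 (chr5:105076464-105110357), Gbp4 (chr5:105115767-105139586), Gbp10 (chr5:105215699-105239533) and Gbp6 (chr5:105270702-105295871). Translation of the canonical coding sequences gave proteins of 525 to 638 residues. Gbp2 with 589 residues and Gbp5 with 590 were the members that ended in a CaaX box, a cysteine motif to which a lipid is attached (prenylation) so that the protein can hold on to membranes.

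The chromosome 5 proteins resembled one another more closely than those of chromosome 3. Identity between aligned residues was 79.2% to 97.7% within the chromosome 5 group, where Gbp6 and Gbp10 formed the closest pair, and 46.9% to 73.1% within the chromosome 3 group. This likeness bears on the counts. Of the 50-base words of the Gbp6 gene model, 61.6% occurred in other genes too, as did 69.0% of those of Gbp10, against 1.80% to 15.7% for the other 7 members. The reads of Gbp6 and Gbp10 may therefore have been split between them or left out of the count, and their separate values are uncertain. A further gene model of the annotation used here, Gm43302, shares exons with both on the same strand and had no row in the count table.

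Because the members are known as interferon targets, the DNA before their annotated transcription starts is shown for the 4 genes of chromosome 3, the members that the RefSeq table of start sites covered. Capitals mark matches to either of 2 short motifs, searched on both strands. The ISRE core, GAAANNGAA, is bound by interferon regulatory factors, and the GAS core, TTCNNNGAA, is bound by STAT dimers. The windows are the 250 bases up to the start, read 5′ to 3′ on the plus strand. They lie at chr3:142620413-142620662 for Gbp2, chr3:142559794-142560043 for Gbp3, chr3:142496684-142496933 for Gbp5 and chr3:142530086-142530335 for Gbp7. The Gbp3 window belongs to the first of its 2 listed starts, which lies inside the gene span given above.
Gbp2: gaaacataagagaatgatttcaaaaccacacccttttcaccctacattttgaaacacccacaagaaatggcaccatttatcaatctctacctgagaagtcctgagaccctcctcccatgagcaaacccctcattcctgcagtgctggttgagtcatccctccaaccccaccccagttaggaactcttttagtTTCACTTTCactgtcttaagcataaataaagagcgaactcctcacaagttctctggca
Gbp3: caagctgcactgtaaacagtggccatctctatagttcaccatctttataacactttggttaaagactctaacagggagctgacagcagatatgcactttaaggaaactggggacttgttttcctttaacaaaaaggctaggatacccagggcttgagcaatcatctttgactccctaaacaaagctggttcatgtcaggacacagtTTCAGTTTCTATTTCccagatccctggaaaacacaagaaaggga
Gbp5: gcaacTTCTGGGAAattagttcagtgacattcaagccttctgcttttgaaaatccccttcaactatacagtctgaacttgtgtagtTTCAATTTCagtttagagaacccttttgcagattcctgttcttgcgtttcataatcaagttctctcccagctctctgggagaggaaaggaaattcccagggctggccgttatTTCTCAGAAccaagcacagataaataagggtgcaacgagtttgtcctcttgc
Gbp7: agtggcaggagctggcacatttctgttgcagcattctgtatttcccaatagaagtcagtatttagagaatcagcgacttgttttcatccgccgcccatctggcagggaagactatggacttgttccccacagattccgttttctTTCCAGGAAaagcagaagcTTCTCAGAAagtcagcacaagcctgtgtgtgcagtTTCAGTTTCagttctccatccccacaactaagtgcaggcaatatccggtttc

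The ISRE core occurred in all 4 of these genes. Its first base lay 58 bases before the start in Gbp2, 44 and 38 bases before it in Gbp3, where 2 matches overlap, 164 bases before it in Gbp5 and 52 bases before it in Gbp7. The GAS core occurred at 245 and 52 bases before the start of Gbp5 and at 106 and 87 bases before that of Gbp7, and in neither Gbp2 nor Gbp3. A second annotated start of Gbp3 had no match to either motif. Among all 32817 mouse windows of the same kind, which run from 250 bases before to 50 bases from the start, 8.55% held the ISRE core, 8.29% the GAS core and 1.07% both. These are matches of letters, and binding was not measured.

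**Figure D1:**
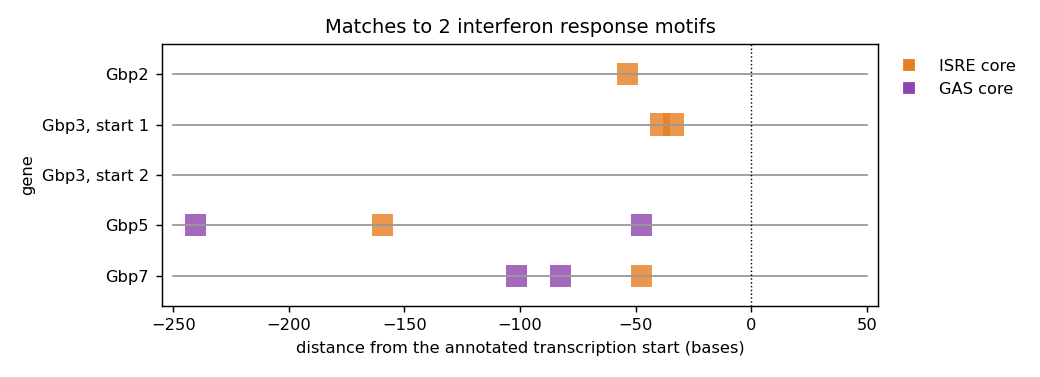
Positions of motif matches in the windows around the annotated transcription starts of Gbp2, Gbp3 (2 starts), Gbp5 and Gbp7. The x axis is the distance from the start in bases, orange boxes are ISRE core matches and purple boxes are GAS core matches. Of the 5 windows, 4 hold an ISRE core and 2 hold a GAS core.

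Total counts per library ran from 8887861 to 32722293, a 3.68-fold range, with the shallowest library, control 3, next to the deepest, control 1, in the same group. A count of 3 was worth 0.338 CPM (the count relative to the library total) in the former and 0.0917 in the latter, a floor that covers counting error only. Each library came from 1 mouse. Epithelial markers were abundant in every library. The summed normalised counts of 8 epithelial markers, including Epcam, Cdh1 and Vil1, were 90594 to 117022 in the controls, 105213 to 119293 in 18h-αGal and 77540 to 99379 in 72h-αGal. Normalised counts are read counts divided by 1 size factor per library, without correction for gene length.

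At 18 h after αGal, transcripts of the whole family were higher than in controls. The normalised counts of the 9 members summed to 216, 313 and 563 in the 3 controls, to 4050, 4182 and 2902 in 18h-αGal, and to 368, 342 and 394 in 72h-αGal. Of the 9 members, 7 passed the test as higher at an adjusted p under 0.05, and 3.27% of all 18933 genes tested were called higher. Among the 7 were Gbp5 and Gbp10, which the filter on low counts kept only through their 18h-αGal libraries, so being tested was not independent of being high there. In all 9, every 18h-αGal library lay above every control, which held for 11.5% of genes tested. The median log2 fold change of the members was 4.14, with a range of 1.65 to 5.15, and that of all genes tested was -0.03. By 72 h the sum was within the range of the controls, and none of the 9 members was called against control.

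**Figure D2:**
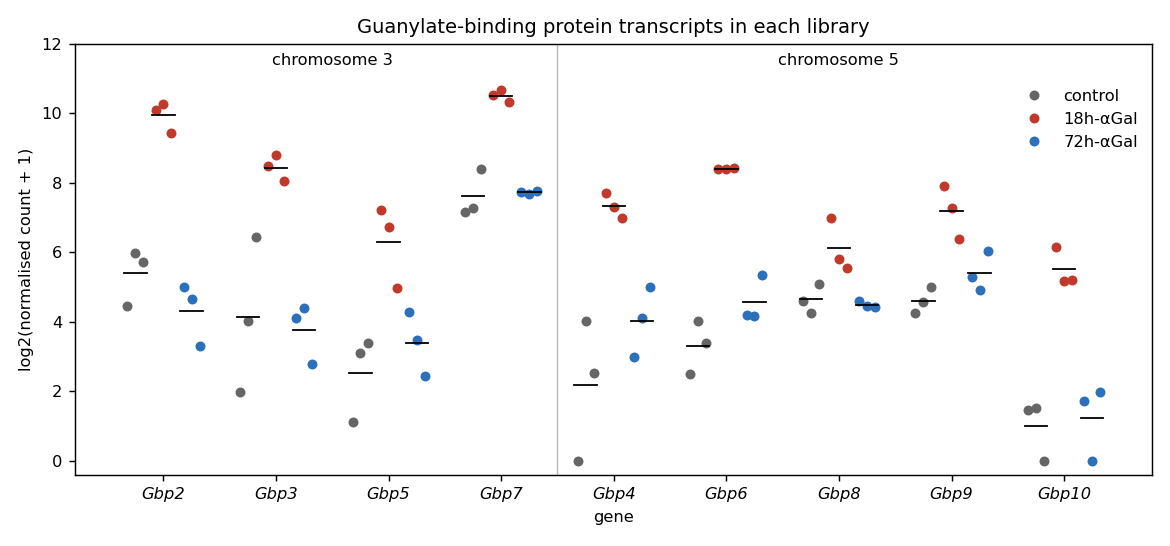
Normalised counts of the 9 genes in each of the 9 libraries, plotted as log2(normalised count + 1). Each point is 1 mouse, drawn in replicate order, and black lines are means of the plotted values in a group of 3. In each gene the 3 points of 18h-αGal lie above the 3 controls and above the 3 points of 72h-αGal.

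Gbp2 and Gbp5 are the members with a CaaX box. Gbp2, which restricts vacuolar parasites such as Toxoplasma, had 21.1, 62.6 and 52.3 normalised counts in the controls and 1100, 1246 and 695 in 18h-αGal. The lowest treated mouse was thus still far above the highest control. The fitted change was 23.4-fold, a log2 fold change of 4.55 ± 0.47 (SE, n = 3 per group, edgeR adjusted p = 0.00031). Gbp5, known to promote inflammasome assembly, had 1.2, 7.6 and 9.5 normalised counts in the controls and 148, 105 and 30.4 in 18h-αGal. Its groups did not overlap, although the treated mice spread more widely than for Gbp2. The log2 fold change was 4.14 ± 0.87 (edgeR adjusted p = 0.012). The call for Gbp5 was lost without control 1 (3.50, edgeR adjusted p = 0.0555), without 18h-αGal 1 (adjusted p = 0.0607) or without 18h-αGal 2 (adjusted p = 0.0501).

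Gbp7 and Gbp3 share the chromosome 3 cluster but lack the CaaX box. Gbp7, which has been linked to the delivery of antimicrobial machinery to pathogen vacuoles, had the highest normalised counts among the members in every library, with 142, 155 and 338 in the controls and 1468, 1646 and 1276 in 18h-αGal. Its high baseline went with a smaller change, 7.23-fold, and with the narrowest error, a log2 fold change of 2.85 ± 0.27 (edgeR adjusted p = 6.65e-05). Gbp3, which lies between Gbp7 and Gbp2, had 2.9, 15.2 and 85.6 normalised counts in the controls and 355, 445 and 265 in 18h-αGal. The groups did not overlap, but the controls alone spanned a wide range, with control 3 the highest. The log2 fold change of 3.65 ± 0.96 did not pass the edgeR test (adjusted p = 0.065). Without control 3 it was 5.40 (adjusted p = 0.0001), and without control 1 it was 2.96 (adjusted p = 0.0434). DESeq2 called Gbp3 on all libraries (adjusted p = 0.019).

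The chromosome 5 cluster held both the largest and the smallest changes. Gbp6 had 4.7, 15.2 and 9.5 normalised counts in the controls and 334, 337 and 344 in 18h-αGal, so that the treated mice were almost level with one another. The log2 fold change of 5.15 ± 0.49, or 35.6-fold, was the highest fitted value of the 9 members (edgeR adjusted p = 5.24e-05), and it was 5.79 without control 2. Gbp10, the close copy of Gbp6, had 3, 2 and 0 raw reads in the controls and 112, 39 and 26 in 18h-αGal. Its baseline was thus at or under the floor of 3 counts, and the fitted log2 fold change of 4.92 ± 1.13 (edgeR adjusted p = 0.0185) rests on 5 control reads. The call for Gbp10 was lost without control 1 (edgeR adjusted p = 0.0667), without 18h-αGal 1 (adjusted p = 0.119) or without 18h-αGal 2 (adjusted p = 0.0532). Taken as a pair, Gbp6 and Gbp10 held 11.02 ± 5.47 normalised counts in controls and 385 ± 17 in 18h-αGal (SD, n = 3). The sum does not depend on how counted reads were divided between them. Shared reads that were left out of the count would be missing from the sum too.

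Gbp4 had 0, 15.2 and 4.8 normalised counts in the controls and 209, 157 and 127 in 18h-αGal. No treated mouse came near the controls, and the log2 fold change was 4.66 ± 0.93 (edgeR adjusted p = 0.0126). Control 2 carried most of the Gbp4 reads of its group, and the value was 7.08 without it and 3.89 without control 1, still called. Gbp9 had 18.2, 22.8 and 30.9 normalised counts in the controls and 239, 155 and 82.8 in 18h-αGal. The log2 fold change was 2.79 ± 0.50 (edgeR adjusted p = 0.00478). Gbp8 moved least. It had 23.5, 18.0 and 33.3 normalised counts in the controls and 127, 55.7 and 45.5 in 18h-αGal, and its log2 fold change of 1.65 ± 0.55 did not pass the test (edgeR adjusted p = 0.0931). Without 18h-αGal 1, the mouse with the highest value, the log2 fold change of Gbp8 was 1.05.

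**Figure D3:**
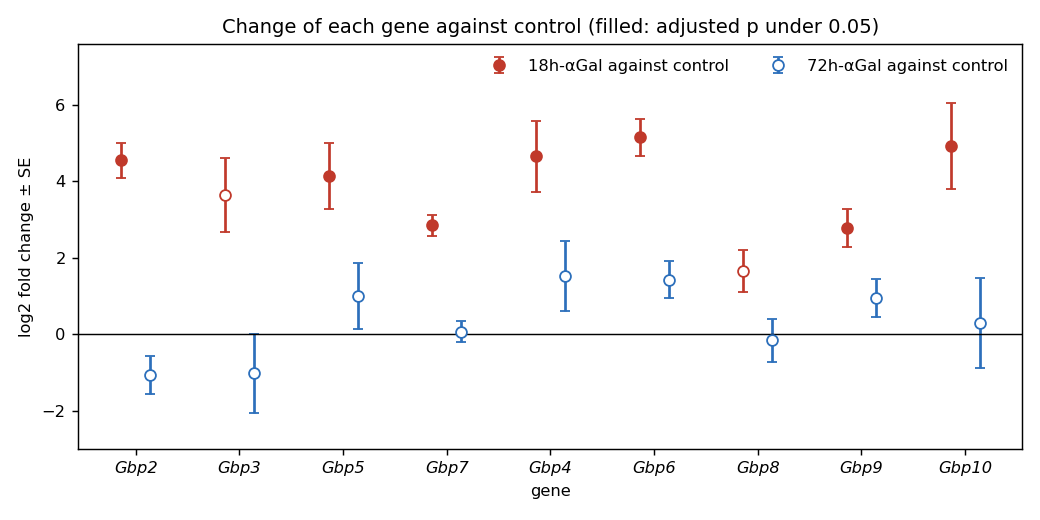
Log2 fold change of each gene against the 3 controls in 18h-αGal (red) and 72h-αGal (blue). Points are fitted values, bars are standard errors, and filled points have an adjusted p under 0.05. At 18 h all 9 values lie above 0 and 7 are filled, and at 72 h none is filled.

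Levels can be compared between genes only per length, so normalised counts were divided by the exonic length in kilobases. In controls Gbp7 stood first at 35.3 ± 18.3 per kilobase (SD, n = 3) and Gbp2 second at 17.7 ± 8.4, with a small overlap between their libraries. Within each control mouse Gbp7 was the higher of the pair, narrowly in control 2. Gbp3 at 8.14 ± 10.5 and Gbp8 at 5.53 ± 1.71 per kilobase came next, within each other's spread. Gbp9 stood at 2.48 ± 0.67, Gbp6 at 1.44 ± 0.77, Gbp5 at 0.836 ± 0.599, Gbp4 at 0.685 ± 0.801 and Gbp10 at 0.208 ± 0.180. The lowest 4 of these overlapped with their neighbours in the order. Gbp7 made up 48.8% of the summed level of the members in controls and Gbp2 24.5%.

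At 18 h the first places were exchanged. Gbp2 reached 396 ± 111 per kilobase, 46.9% of the family, and Gbp7 reached 244 ± 31, 28.9% of the family. Their ranges over mice overlapped, with Gbp2 as low as 272 and Gbp7 as high as 275. Within each 18h-αGal mouse, however, Gbp2 was the higher of the pair. Gbp3 followed at 83.5 ± 21.2 and Gbp6 at 49.8 ± 0.7, each apart from its neighbours in every library. Gbp4 (16.9 ± 4.3), Gbp8 (16.9 ± 9.8), Gbp9 (16.4 ± 8.1), Gbp5 (13.0 ± 8.2) and Gbp10 (8.04 ± 3.46) each overlapped with their neighbours in the order, although every Gbp4 library lay above every Gbp10 library. At 72 h Gbp7 was first again at 35.3 ± 1.1 per kilobase, 55.4% of the family, ahead of Gbp2 at 8.37 ± 4.48. With the length of the canonical transcript in place of all annotated exons, a choice made after the data were seen, the first 4 places at 18 h were the same, and Gbp8 came next at 47.5 per kilobase. In the other groups that length moved Gbp8 up, above Gbp3 in controls (15.6 against 12.6) and above Gbp2 at 72 h (13.5 against 8.44).

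**Figure D4:**
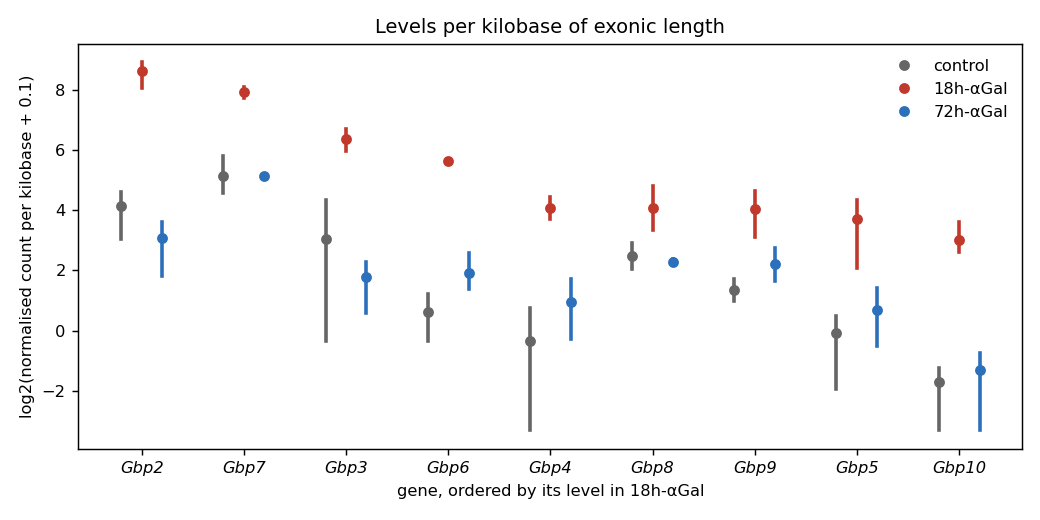
Levels per kilobase of exonic length for each gene, as log2(normalised count per kilobase + 0.1). Points are means of 3 mice and lines run from the lowest to the highest mouse of the group, with control in grey, 18h-αGal in red and 72h-αGal in blue. Gbp2 and Gbp7 stand highest at 18 h, at 396 and 244 per kilobase.

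At 72 h after αGal the log2 fold changes of the members against control lay between -1.06 and 1.51, with a median of 0.30. None was called against control by edgeR or by DESeq2, 1 of 9 had an unadjusted p under 0.05, and 0.0264% of genes tested were called in either direction. Gbp7 had 214, 204 and 216 normalised counts, within the range of the controls, and a log2 fold change of 0.07 ± 0.26. Gbp2 had 31.3, 24.2 and 8.8 normalised counts and a fitted value of -1.06 ± 0.50 on the log2 scale. The value nearest to a call was that of Gbp6, with 17.4, 17.1 and 39.7 normalised counts. All 3 mice were above the highest control, which held for 6.36% of genes tested, and the log2 fold change was 1.43 ± 0.48 (edgeR adjusted p = 0.81). With Gbp10 added, the pair held 26.5 ± 14.1 normalised counts at 72 h against 11.02 ± 5.47 in controls.

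No member of either cluster was called at 72 h. Of the 5 members on chromosome 5, 4 had a log2 fold change above 0, with a median of 0.95, and of the 4 on chromosome 3, 2 did, with a median of -0.48. The chromosome 3 values include that of Gbp3, which changed sign without control 3 (0.72). Gbp4 had 7.0, 16.1 and 30.9 normalised counts and a log2 fold change of 1.51 ± 0.92, and Gbp9 had 38.2, 29.2 and 64.8 and a value of 0.95 ± 0.49. Both overlapped with the controls, and the value of Gbp4 was 3.94 without control 2, 0.75 without control 1 and 0.85 without 72h-αGal 3. Gbp3, with 16.2, 20.2 and 5.9 normalised counts, and Gbp5, with 18.5, 10.1 and 4.4, overlapped with the controls too, at log2 fold changes of -1.03 ± 1.03 and 1.01 ± 0.87. Gbp8 had 23.2, 21.2 and 20.6 normalised counts and a value of -0.16 ± 0.56, and Gbp10 had 2, 0 and 4 raw reads, near its floor. Whether the clusters differ was not tested.

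Between the treated groups, all 9 members were called lower at 72 h than at 18 h, where 6.04% of genes tested were called lower. In all 9, every 72h-αGal library lay under every 18h-αGal library, as did 16.3% of genes tested. Gbp2 fell most, with a log2 fold change of -5.61 ± 0.50 (edgeR adjusted p = 9.73e-05), and Gbp8 least, with -1.81 ± 0.55 (adjusted p = 0.0487). This comparison has its 18h-αGal libraries in common with that against control, so both depend on the same 3 mice. The number of members called was sensitive to single libraries. It was 3 without 18h-αGal 1, 4 without 18h-αGal 2, 5 without 72h-αGal 1, 4 without 72h-αGal 2 and 5 without 72h-αGal 3, and Gbp2, Gbp6 and Gbp7 kept their call in each case.

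The mice of a group did not rank alike for each member. In 18h-αGal, mouse 3 had the lowest normalised count for 7 of the 9 members, and mouse 1 the highest for 5. In controls, mouse 1 was lowest for 7 of 9. In 72h-αGal, mouse 3 was lowest for 4 members, Gbp2, Gbp3, Gbp5 and Gbp8, and highest for the other 5. Across all 9 libraries, which hold the group differences, each member correlated with the mean of the other 8 at r = 0.88 to 0.975 on the log2 scale. The genes outside the family with the most similar pattern over the 9 libraries, among 11145 with a mean of at least 100 counts, were Tmsb10 (r = 0.984), C3 (0.981), Psmc4 (0.980), Wars1 (0.978) and Ly6e (0.977). Their changes were of unequal size. C3, the central complement component, had 50.7 ± 20.5, 721 ± 79 and 87.2 ± 21.5 normalised counts in control, 18h-αGal and 72h-αGal, while Tmsb10, an actin-binding thymosin, had 1245 ± 136, 2355 ± 148 and 1441 ± 36 (SD, n = 3).

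A further family member, Gbp11, had 0 reads in all 3 controls, 21, 45 and 8 reads in 18h-αGal, and 0, 0 and 4 in 72h-αGal. It did not pass the test at 18 h (edgeR adjusted p = 0.058). Gbp2b, the gene next to Gbp2, was not analysed here.

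The pathway that switches GBP genes on was examined as a list of 12 genes of interferon-γ signalling. At 18 h, 4 were called higher and 1 lower, where 3.27% of all genes tested were called higher and 2.69% lower. The interferon regulatory factors Irf1 (0.76 ± 0.16) and Irf8 (1.39 ± 0.20) and the feedback inhibitor Socs1 (1.60 ± 0.22) were among those called higher, with log2 fold changes ± SE in parentheses. Socs3, an inhibitor best known from the interleukin-6 pathway, was called lower, with a log2 fold change of -1.07 ± 0.25. The receptor chains Ifngr1 (-0.16 ± 0.11) and Ifngr2 (-0.54 ± 0.18) and the kinases Jak1 (0.01 ± 0.11) and Jak2 (0.25 ± 0.13) did not pass, nor did Stat2 (1.70 ± 0.43, adjusted p = 0.067). The list median was 0.32, and that of all genes tested was -0.03.

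Other interferon-inducible GTPases formed a list that holds immunity-related GTPases, which act on pathogen vacuoles, the antiviral Mx proteins and Gvin1. At 18 h 9 of these 11 were called higher, where 3.27% of all genes tested were. The list median was 3.20, and that of all genes tested was -0.03. The effectors Iigp1 (6.69 ± 0.65) and Tgtp1 (7.05 ± 0.70) had log2 fold changes above those of the 9 members. That of Tgtp2 (5.28 ± 0.48) was close to the highest member value, 5.15 ± 0.49 for Gbp6. Differences between genes were not tested, and Tgtp1 and Tgtp2 are near-identical copies whose reads may have been split. The regulators Irgm1 (2.52 ± 0.21), Irgm2 (3.20 ± 0.56) and Igtp (4.65 ± 0.78), as well as Ifi47 (2.57 ± 0.21), Gm12250 (3.57 ± 0.51) and the antiviral Mx1 (1.99 ± 0.50), were called too. The exceptions were Mx2 (0.91 ± 0.32, edgeR adjusted p = 0.114) and the very large GTPase Gvin1, which had the opposite sign (-0.86 ± 0.26, adjusted p = 0.0687). The atlastins Atl1, Atl2 and Atl3, distant relatives of the GBPs that shape the endoplasmic reticulum, had log2 fold changes of -0.15 to -0.26, and edgeR called 0 of 3, while 1 fell under a p of 0.05 before adjustment.

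Genes of lipopolysaccharide sensing and pyroptosis, of ubiquitin-like conjugation and of prenylation were not called at 18 h. Of 7 tested genes for sensing of cytosolic lipopolysaccharide and pyroptosis, edgeR called 0 at 18 h, and before adjustment 1 gene fell under a p of 0.05. This was Casp4, which encodes the caspase that binds lipopolysaccharide, with a log2 fold change of -0.87 ± 0.26 (adjusted p = 0.0613). The log2 fold changes of the inflammasome caspase Casp1 (0.26 ± 0.14), the pore former Gsdmd (-0.40 ± 0.41), the adaptor Pycard (0.12 ± 0.10) and the cytokine Il18 (-0.39 ± 0.35) did not pass. Of 13 genes of the ubiquitin-like conjugation that guides GBPs to vacuoles, 0 were called, and before adjustment 5 fell under a p of 0.05, with a list median of 0.03. Named after their values were seen, the 5 were Trim21 (0.69 ± 0.24), Atg3 (0.48 ± 0.17), Atg5 (0.46 ± 0.17), Gabarapl2 (0.44 ± 0.20) and Map1lc3b (-0.36 ± 0.14). Among the other 8, the log2 fold changes were 0.17 ± 0.13 for Gabarap and 0.03 ± 0.11 for Sqstm1. Of the 6 prenylation genes, whose products modify CaaX proteins such as Gbp2 and Gbp5, 0 were called, and before adjustment 1 fell under a p of 0.05. This was Rce1, the protease that trims CaaX proteins, named after its value was seen, with a log2 fold change of 0.66 ± 0.20 (edgeR adjusted p = 0.0615). Pggt1b, a subunit of the geranylgeranyl transferase, had a value of -0.05 ± 0.12. The share of all genes tested under a p of 0.05 before adjustment was not counted, so these numbers stand without a background.

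At 72 h no gene of these lists was called against control by edgeR, and 2 in all, Irgm1 and Il18, had an unadjusted p under 0.05. Between 72 h and 18 h, 9 of the 11 other GTPases and 6 of the 12 signalling genes were called lower, Jak2 and Stat2 among the latter. Of all genes tested, 6.04% were called lower in this comparison. Genes with the opposite direction were Socs3 (1.21 ± 0.25), Gvin1 (1.35 ± 0.27), Casp4 (0.98 ± 0.26) and Atl3 (0.45 ± 0.12), which were called higher at 72 h than at 18 h, as were 4.18% of genes tested. Casp1 (-0.55 ± 0.14) was called lower at 72 h, as were Atg5 (-0.62 ± 0.17) and Gabarapl2 (-0.83 ± 0.20) of the conjugation genes.

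In bulk RNA, fewer cells of a type and less RNA per cell cannot be told apart, so markers of cells that a sort of this kind can carry along were set beside the members. The summed normalised counts of 4 pan-leukocyte markers were 159 to 195 in controls, 42.9 to 138 in 18h-αGal and 106 to 151 in 72h-αGal. The sums of 18h-αGal lay under those of the controls without overlap. Of the 4, Ptprc went the other way, at 14.2 to 29.4 in controls and 25.2 to 39.5 in 18h-αGal. Cd52 ran from 92.7 to 153 in controls and from 5.0 to 80.8 in 18h-αGal. Laptm5 and Coro1a had log2 fold changes below 0 too. Summed endothelial markers were also lower at 18 h than in controls without overlap (47.5 to 66.6, then 12.6 to 20.7). So were the stromal markers (94.0 to 102, then 24.8 to 49.4). Of these, 1 of 4 endothelial and 3 of 6 stromal markers passed the filter and were tested. How many of all genes lay under every control at 18 h was not counted. T and NK cell markers, of which 6 of 9 had a row and 1 was tested, summed to 8.8 to 28.5 in controls, 4.1 to 12.6 in 18h-αGal and 1.5 to 86.9 in 72h-αGal, and each of the 6 was at 0 in at least 1 library. B and plasma cell markers summed to 33.3 to 43.7, 5.4 to 54.9 and 35.3 to 62.5, with Ms4a1, Jchain and Mzb1 at 0 in at least 1 library. Myeloid markers, mostly Cd68, summed to 323 to 537, 390 to 645 and 605 to 851. No single marker of any list was called at 18 h, and erythroid markers were not analysed here. No list of another cell type had sums at 18 h that lay above the controls without overlap. Such sums do not measure GBP transcripts in these cells, and the part of these cells in the GBP values was not tested.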

How the data were processed

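RNA sequencing was performed on sorted crypt IECs of 9 mice, 3 per group, grouped by the labels. Members and gene lists were chosen with earlier results of these data known. The authors made rRNA-depleted, strand-directional libraries. They deposited raw read counts per gene, for which the labels name HISAT2, featureCounts and the build GRCm38, while the methods name GRCm39. The authors also deposited a normalised signal, the count divided by a DESeq2 (1.42.0) size factor per library. The annotation release and the handling of reads with several matches are not given in the sources used here. Gene identifiers were matched to GENCODE vM39 (28480 of 29288), which also gave lengths, proteins and 50-base words; positions and start-site sequences are RefSeq's.

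Counts were tested in R 4.3.3 with edgeR 4.0.16: filterByExpr (18933 genes kept), TMM scaling, and 1 quasi-likelihood model (robust) with a mean per group over all 9 libraries (common dispersion 0.123). P-values were two-sided and adjusted by Benjamini-Hochberg over all genes tested. A gene was called where its adjusted p was under 0.05, and SE came from the F statistic. The procedure was tested on simulated data. Named were all members, Gbp2b and Gbp11, listed genes called in any comparison, some uncalled genes of each list with high mean counts, and the 5 genes most similar in log2 CPM (prior count 2). Alternatives were DESeq2, limma 3.58.1 on log2(normalised count + 1), other scaling, no filter, only the 2 groups compared, a replicate block, and leaving out each library. No library pair of a group agreed within sampling noise. A listed gene is not reported here.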

Additional observations from a re-analysis of the deposited data

Results flagged for a closer look

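For each of the 9 members, the change against the shared controls differed between 72 h and 18 h after αGal, by the edgeR test of the difference itself. The difference, which equals the log2 fold change of 72h-αGal against 18h-αGal, was -5.61 for Gbp2, -4.68 for Gbp3, -3.14 for Gbp4, -3.13 for Gbp5, -3.73 for Gbp6, -2.79 for Gbp7, -1.81 for Gbp8, -1.84 for Gbp9 and -4.62 for Gbp10. The edgeR adjusted p values ran from 5.93e-05 for Gbp7 to 0.0487 for Gbp8, and each of the 3 later mice was lower than each of the 3 earlier mice for all 9 genes. Of all genes tested, 6.04% were called lower in this comparison and 16.3% had every later library lower. It is the same comparison of the treated groups as reported above. Controls at 72 h were not part of the design.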

How the results depend on the processing

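Against control at 18 h, 7 of 9 members were called, 8 with DESeq2, 8 with limma and 5 to 8 when 1 library was left out. Of 135 values of single members, 125 stayed on the same side of the threshold, 6 lost their call, 4 gained it and 0 changed sign. At 72 h against control the count was 0 in every alternative, and 5 of 133 values, none of them called, changed sign: 0.72 for Gbp3 and 0.0653 for Gbp8 without control 3, -0.16 and -0.10 for Gbp7 without control 1 and 2, and -0.36 for Gbp10 without 72h-αGal 3. With 1 library left out, these 4 ran from -1.72 to 0.72, from -0.16 to 0.52, from -0.34 to 0.0653 and from -0.36 to 0.83 for Gbp3, Gbp7, Gbp8 and Gbp10. The uncalled 72 h value of Gbp4 ran from 0.75 to 3.94. Gbp5 and Gbp10 gave no 72 h value in the fit of only the 2 groups compared, where the filter removed them. Between 72 h and 18 h, 9 members were called, 7 with limma and 3 to 9 when 1 library was left out, with 34 of 135 values losing their call and 0 changing sign; such fits have fewer samples. The labels do not state that replicate numbers pair the mice. The deviations of same-numbered libraries correlated at -0.15 to 0.115, with 1 of 9 pairs over 0.1, and other pairs at -0.10 to 0.135. Correlations in groups this small cannot exclude a pairing. With the replicate block, 7 members were called at 18 h, 0 at 72 h against control and 6 between 72 h and 18 h. Over all genes, 432 to 1720 were called at 18 h across the alternatives, against 619 higher and 509 lower as reported. Depth limits Gbp10 most, with 5 reads in controls and 6 at 72 h, followed by Gbp5 with 14 and Gbp4 with 18 control reads.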
